A study of Mus musculus with 12 samples.

Results

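The diet by genotype interaction asks whether the liver of mice without NLRP6 answered a high-fat diet differently from the wild-type liver. It was taken as the diet response in the knockout minus the diet response in the wild type, for all 13843 rows of the count table (of 42554) that held enough counts to test, in all 12 libraries of the series. The 4 groups of 3 libraries were wild-type mice (WT) and NLRP6 knockout mice (KO), each on a normal diet (ND) or on a high-fat diet (HFD) for 12 weeks from the age of 8 weeks. The mice kept on ND went on with the normal diet over that time. Whole-liver RNA was sequenced, and total counts per library ran from 13339879 to 15933886. The series asks what NLRP6 does in the build-up of lipid droplets in hepatocytes, and its submitters state that NLRP6 was found to be knocked out in these cells. Whether other cells kept it, the construction of the allele, the strain and the sex of the mice were not stated. Nothing says that each library is a separate animal, so p-values measure only how far these samples vary, a spread that may be technical.

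NLRP6 is a receptor of the NOD-like family, which sense microbial and damage signals in the cytosol. With the adaptor ASC it can form an inflammasome, a complex that activates caspase-1 and so the cytokines IL-1β and IL-18, and it is best known from the gut epithelium. A high-fat diet loads hepatocytes with triglyceride held in lipid droplets, and it alters the expression of much of the liver's lipid and sterol metabolism. An interaction is the part of a gene's diet response that depends on the genotype, whatever the size of the shared response.

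The count table names genes by IDs of a C57BL/6NJ strain annotation, and 0 of them could be paired with a symbol. Nlrp6, lipid and inflammasome genes and the markers of hepatocytes and other liver cells were therefore not analysed here, and the gene groups below are described by their pattern over the 4 groups. In whole tissue, fewer cells of a type and less RNA per cell cannot be told apart. One row followed the genotype labels in every library, with 2019 to 2981 counts in the 6 WT libraries and 0 in the 6 KO libraries. That row did not pass the interaction test (edgeR quasi-likelihood adjusted p = 1.0). The test cannot decide there, because with 0 counts on both diets the response in KO has no estimate.

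The response to the diet differed between genotypes for 167 genes, 1.21% of those tested (adjusted p under 0.05). It was higher in KO for 106 genes (0.766%) and lower in KO for 61 (0.441%). The count rests on single libraries, with 942 genes once KO HFD replicate 1 was left out and 11 once WT HFD replicate 3 was. An interaction of 1 on the log2 scale means that the ratio of HFD to ND was 2 times as large in KO as in WT. The median size in the called genes was 1.60, a 3.02-fold difference between the 2 ratios, against 0.33 over all tested genes. Of the called genes 148 differed at least 2-fold and 56 at least 4-fold, and the smallest called difference was 0.66. At an unadjusted p under 0.05 there were 2282 genes, 1268 of them higher in KO and 1014 lower. Over all tested genes the interaction centred near 0, with a median of 0.02 and quartiles of -0.29 and 0.36.

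The interaction is a difference of 2 differences, and its error was correspondingly wider. The median standard error (SE) over tested genes was 0.31 on the log2 scale, against 0.22 for the diet response in WT and 0.22 for that in KO. It fell with abundance, from 0.87 in genes with a mean under 1 CPM (counts scaled to normalised library size) to 0.22 in those over 100 CPM. The called share rose over the same range, from 0.504% to 1.98%, with 1.15% between 1 and 10 CPM and 1.22% between 10 and 100 CPM. The called genes under 1 CPM had a median interaction of 4.73, so that only very large differences were detectable there, and those over 100 CPM had 1.42. Unannotated loci, transcribed regions outside the annotation, made up 9 of the 167, 1.63% of the 552 tested, against 1.19% of the 13291 annotated genes.

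In most of the called genes the fitted responses of the 2 genotypes pointed in opposite directions. They had opposite signs in 108 of the 167, or 64.7%, against 22.1% of all tested genes. Of the 106 genes whose response was higher in KO, the fitted responses were of opposite sign in 75, both positive in 24 and both negative in 7. Of the 61 genes whose response was lower in KO, they were of opposite sign in 33, both positive in 7 and both negative in 21. The diet response was the larger one in KO in 112 of the 167 called genes, against 52.3% of all tested genes. The interaction uses the same libraries as these responses, so the shares describe the called genes and are no separate evidence.

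**Figure D1:**
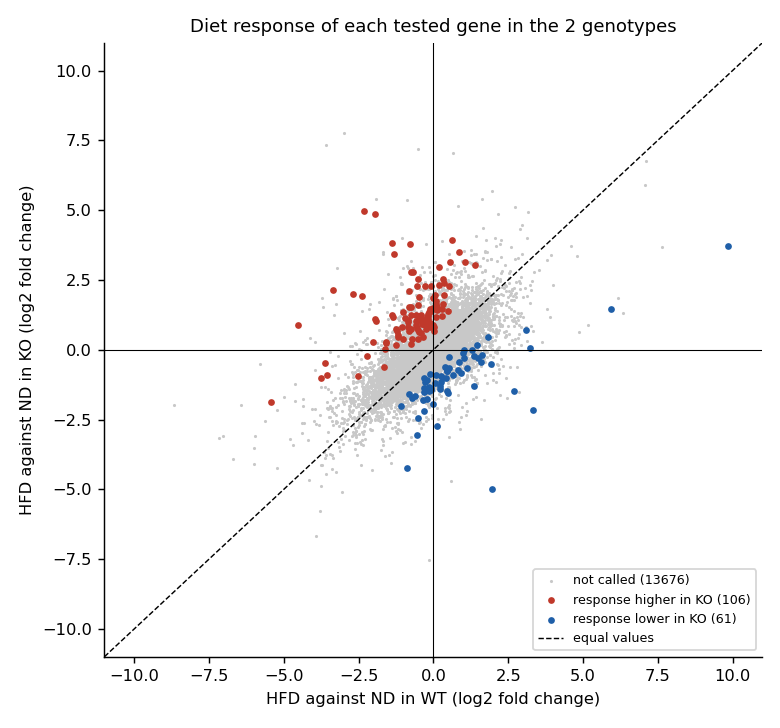
Diet response of every tested gene as log2 fold change of HFD against ND, in WT (horizontal axis) and in KO (vertical axis). Red points are the 106 genes whose response was higher in KO, blue points the 61 whose response was lower, grey points the genes not called, and the dashed line marks equal responses. The grey cloud lies along the dashed line, and most coloured points lie in the upper left and lower right of the plot, where the 2 responses have opposite signs.

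The test of each genotype's own diet response sorted the called genes further. In WT 41.0% of all tested genes were called between diets, and in KO 44.8%. Among the genes with a higher response in KO, 56 rose in KO and were not called in WT, 28 rose in KO and fell in WT, and 13 fell in WT and were not called in KO. A further 5 fell in both genotypes, less in KO, and 4 rose in both, more in KO. Among the genes with a lower response in KO, 24 fell in KO and were not called in WT, 13 fell in KO and rose in WT, and 14 rose in WT and were not called in KO. A further 7 fell in both, more in KO, and 3 rose in both, less in KO.

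Genes called in opposite directions were few in the whole table. Most of them passed the interaction test, which their selection largely fixed. Responses called with opposite signs add up in the interaction, the response in KO minus that in WT. The shares that passed are therefore a description and no separate evidence. In all, 35 tested genes fell in WT and rose in KO, of which the 28 (80%) were called for the interaction. Their median log2 response was -0.86 in WT and 1.02 in KO, and their interaction ranged from 0.81 to 5.50. In the other direction 17 tested genes rose in WT and fell in KO, of which the 13 (76.5%) were called. Their median response was 0.81 in WT and -0.82 in KO. The order of the libraries gives a looser count without a test. In 36 of the 106 genes all 3 WT HFD libraries lay below all 3 WT ND libraries while all 3 KO HFD libraries lay above all 3 KO ND libraries. Over all tested genes, 0.621% showed this order. The mirror order was seen in 13 of the 61 genes and in 0.405% of all tested genes.

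With all libraries, genes called in KO and not in WT were the most numerous. The 56 genes that rose in KO and were not called in WT had a median response of 1.51 in KO and -0.15 in WT, with WT values from -2.32 to 0.63. They were 4.53% of the 1235 tested genes that rose in KO and were not called in WT. The 24 genes that fell in KO and were not called in WT had medians of -1.39 in KO and -0.09 in WT, and made up 2.33% of 1031 genes. With 1 library left out, the 56 became 2 (no WT HFD replicate 3) to 200 (no KO HFD replicate 1), and the 24 became 1 (no KO HFD replicate 3) to 121 (no KO HFD replicate 1). In the fit that gave 2, the genes that fell in WT and rose in KO were more numerous, at 4. The other members of these large classes were not called for the interaction, so a call in one genotype and none in the other did not by itself pass the test of the difference. Genes called in WT and not in KO were fewer. The 13 that fell in WT had medians of -1.57 in WT and 0.26 in KO, and the 14 that rose in WT had medians of 1.41 in WT and -0.20 in KO. In the 5 genes that fell in both genotypes, less in KO, the medians were -3.56 in WT and -0.94 in KO.

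The levels behind these classes formed a cross. For each gene, log2 CPM was expressed relative to its mean over the 12 libraries and then averaged over the genes of a set. The 106 genes with a higher response in KO stood at 0.43, 0.53 and 0.42 in the WT ND libraries and at -0.62, -0.89 and -0.73 in the KO ND libraries. On HFD they stood at -0.16, -0.31 and -0.19 in WT and at 0.28, 0.69 and 0.56 in KO. KO was thus below WT on ND and above it on HFD, with no overlap between the library means on either diet. The 61 genes with a lower response in KO formed the mirror image, at -0.29, -0.42 and -0.32 in WT ND, 0.45, 0.60 and 0.40 in KO ND, 0.33, 0.41 and 0.39 in WT HFD, and -0.35, -0.65 and -0.55 in KO HFD. These genes were chosen by the interaction in the same libraries, so the cross is a description and was not tested.

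**Figure D2:**
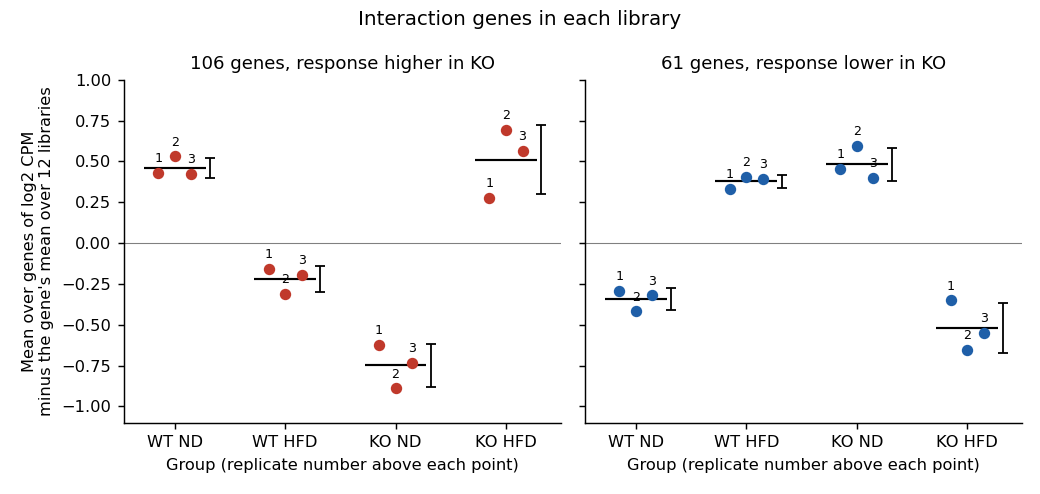
Mean over genes of log2 CPM minus the gene's mean over 12 libraries, for the 106 genes with a higher response in KO (left) and the 61 with a lower response (right). Each point is a library with its replicate number, the line is the group mean and the bar beside it 1 SD (n = 3). In the left panel KO ND lies lowest, at -0.75 ± 0.13, and KO HFD replicate 1, at 0.28, lies below the other 2 KO HFD libraries.

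The KO ND group stood apart most often. In 88 of the 167 called genes (52.7%), KO ND was the group farthest from the median of the other 3, against 36.5% of all tested genes. It was the low group in 63 of the 106 genes with a higher response in KO and the high group in 25 of the 61 with a lower response. WT HFD stood apart in 31 called genes (18.6%, against 27.5% of all tested genes) and WT ND in 25 (15%, against 20.3%). KO HFD did so in 23 (13.8%), near its share of 15.6% over all tested genes. KO ND also came first over all tested genes, and its share was higher still among the called ones. The called genes were chosen by a contrast of these 4 groups in the same libraries. The shares are therefore a description, and whether KO ND carries the interaction was not tested.

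The genotype difference on each diet gives the same sum from its other side. The interaction equals KO against WT on HFD minus KO against WT on ND. In the genes with a higher response in KO, the median log2 genotype difference was -1.19 on ND and 0.55 on HFD, and in those with a lower response it was 0.83 on ND and -0.65 on HFD. The ND part was the larger one in 113 of the 167 genes (67.7%, against 57.0% of all tested genes). KO and WT differed on ND in 112 of the 167 and on HFD in 20, where 4.81% and 0.246% of all tested genes were called. Of the 167, 109 were called on ND alone, 17 on HFD alone, 3 on both with opposite signs, and 38 on neither diet. The 167 were chosen by the difference of these contrasts, so the counts are a description and no separate evidence.

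The genotype difference changed sign between diets in 146 of the 167 (87.4%), against 49.5% of all tested genes. In 54 of the 106 genes with a higher response, all KO libraries lay below all WT libraries on ND and above all of them on HFD, an order found in 1.13% of tested genes. The reverse order held for 39 of the 61 with a lower response and for 0.816% of tested genes. The 167 were chosen, in the same libraries, by the genotype difference on HFD minus that on ND. That choice favours opposite signs and these orders. The shares are therefore a description and no separate evidence.

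**Figure D3:**
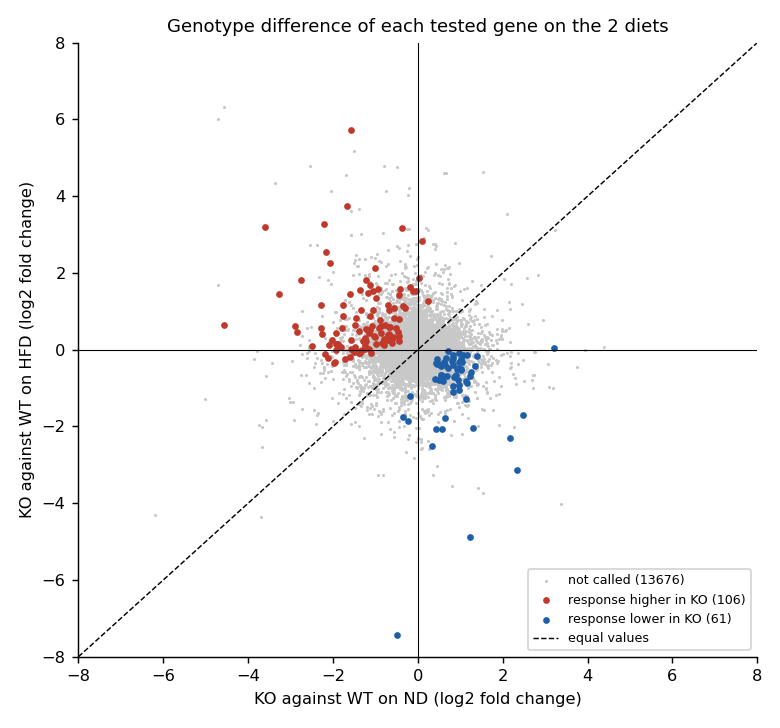
Genotype difference of every tested gene as log2 fold change of KO against WT, on ND (horizontal axis) and on HFD (vertical axis), with 1 gene that was not called outside the axes. Red points are the 106 genes whose diet response was higher in KO, and blue points the 61 whose response was lower. Red points lie to the left of the dashed line of equal differences and mostly below 0 on ND, and blue points to its right.

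Because the gene names are not known, 4 genes are described by ID, those with the lowest p and the largest interaction in each direction among annotated genes whose mean over the 12 libraries reached 10 CPM. MGP_C57BL6NJ_G0029349 had the lowest p among genes with a higher response in KO. It was at 19.6, 17.4 and 12.9 CPM in the WT ND libraries and at 16.2, 15.1 and 15.8 CPM in the WT HFD libraries. In KO it was at 4.69, 3.92 and 5.79 CPM on ND and at 18.4, 28.6 and 22.6 CPM on HFD. The KO ND libraries lay below all others, and the KO HFD libraries overlapped only with WT ND. On HFD it rose in KO by a log2 fold change of 2.27 (SE 0.21, edgeR adjusted p = 7.73e-06). In WT the value of -0.09 (SE 0.20) did not pass. The interaction was 2.36 (SE 0.29, edgeR adjusted p = 0.00542). Its genotype difference was -1.79 on ND (edgeR adjusted p = 0.000998) and 0.56 on HFD (edgeR adjusted p = 0.300).

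MGP_C57BL6NJ_G0019851 had the largest interaction of the remaining genes in that direction. It was at 24.9, 28.5 and 14.3 CPM in WT ND, 24.6, 8.72 and 14.5 CPM on HFD in the same genotype. In KO it was at 13, 8.89 and 7.19 CPM on ND. On HFD it was there at 31.0, 69.2 and 66.4 CPM, above every other library, with replicate 1 nearest to them. The genotype difference on HFD, 1.81, did not pass (edgeR adjusted p = 0.145). It rose in KO, by 2.52 on the log2 scale with an SE of 0.44 (edgeR adjusted p = 0.00105). The WT value of -0.51 (SE 0.42) did not pass, with an edgeR adjusted p of 0.363. The interaction of 3.02 (SE 0.61, edgeR adjusted p = 0.0423) passed narrowly. It was lost in 9 of the 12 fits that left out 1 library, all but those without WT ND replicate 3, WT HFD replicate 1 or KO HFD replicate 1. Over the 12 fits the interaction stayed between 2.73 and 3.48, with edgeR adjusted p from 0.00997 to 0.127.

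In the other direction, MGP_C57BL6NJ_G0017358 had the lowest p. It was at 53.2, 50.9 and 58.0 CPM in WT ND, and 40.4, 46.7 and 40.3 CPM in WT HFD. In KO the values were 102, 122 and 94.8 CPM on ND, against 32.1, 30.3 and 28.9 CPM on HFD. No pair of groups overlapped, and KO lay above WT on ND and below it on HFD. The genotype difference passed on ND (0.98, edgeR adjusted p = 0.00129) and did not pass on HFD (-0.48, edgeR adjusted p = 0.152). It fell on HFD in both genotypes, by a log2 fold change of -0.35 in WT (SE 0.12, edgeR adjusted p = 0.0349) and of -1.80 in KO (SE 0.12, edgeR adjusted p = 1.74e-06). The interaction was -1.46 (SE 0.17, edgeR adjusted p = 0.00542).

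MGP_C57BL6NJ_G0032715 had the largest interaction of the remaining genes with a lower response. It was low in WT ND, at 0.432, 0.434 and 0.917 CPM (7, 7 and 14 counts), and reached 19.2, 54.6 and 35.8 CPM in WT HFD. In KO it went from 1.41, 4.97 and 1.77 CPM on ND to 5.06, 8.06 and 9.11 CPM on HFD. The diets did not overlap in either genotype, and on HFD all KO libraries lay below all WT libraries, a difference of -2.30 that did not pass (edgeR adjusted p = 0.0930). It rose in both, by a log2 fold change of 5.93 in WT (SE 0.60, edgeR adjusted p = 5.16e-05) and of 1.46 in KO (SE 0.50, edgeR adjusted p = 0.0331), an interaction of -4.47 (SE 0.79, edgeR adjusted p = 0.0254). The call was lost without WT ND replicate 1 (edgeR adjusted p = 0.0543), WT ND replicate 2 (0.0868), WT HFD replicate 3 (0.0601), KO HFD replicate 2 (0.0709) or KO HFD replicate 3 (0.0641). The interaction stayed between -4.90 and -3.71 in the 12 fits.

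**Figure D4:**
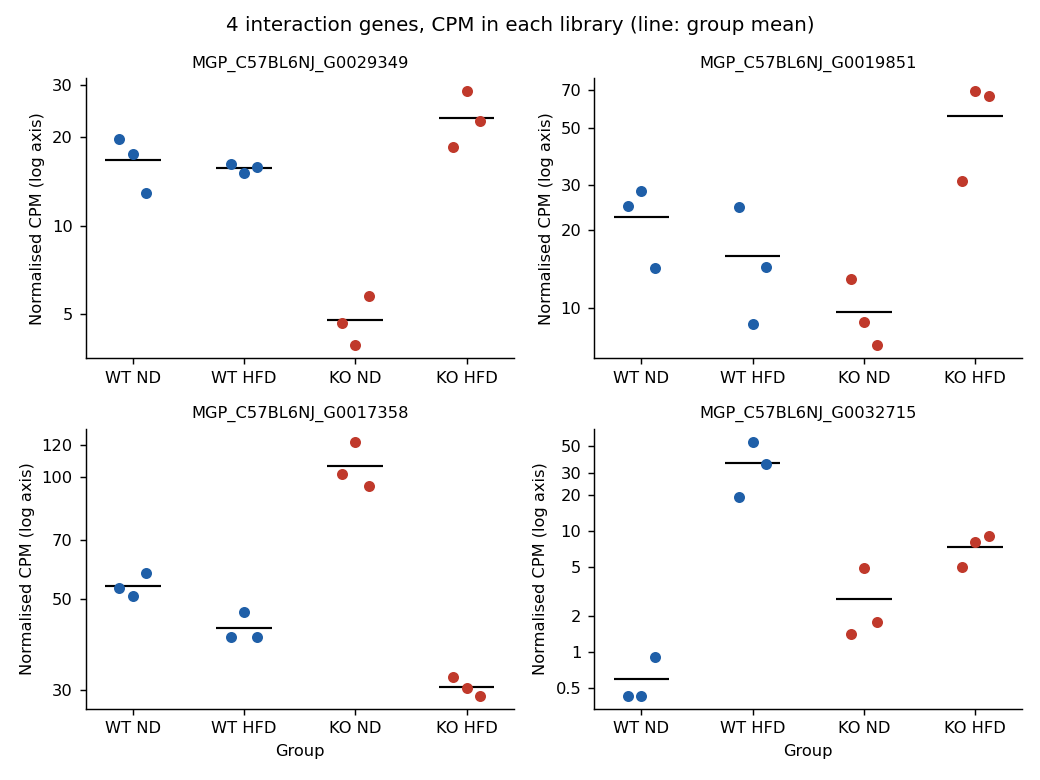
Normalised CPM (log axis) of the 4 genes in each of the 12 libraries, with WT in blue, KO in red and the group mean as a line. The upper 2 genes are lowest in KO ND and highest in KO HFD, the lower left gene is highest in KO ND and lowest in KO HFD, and the lower right gene rises most in WT.

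Abundant genes took part as well. Of the 116 tested genes with a mean over 1000 CPM, 4 were called (3.45%, against 1.21% of all tested genes). The share rests on these 4 genes, 3 with a higher and 1 with a lower response in KO, and was not tested. The most abundant called gene in each direction was singled out after the values were seen and is given without its ID. The one with a lower response fell in KO from 12787, 12769 and 15330 CPM on ND to 2452, 1080 and 1352 CPM on HFD. In WT it was at 12226, 10888 and 7108 CPM on ND and at 7637, 6090 and 6737 CPM on HFD, where it was not called (edgeR adjusted p = 0.115). Its interaction was -2.50 (SE 0.39, edgeR adjusted p = 0.0138), and the call was lost without WT HFD replicate 3 (edgeR adjusted p = 0.050) or KO HFD replicate 3 (edgeR adjusted p = 0.0525).

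The one with a higher response in KO was the last gene to pass the threshold. It went from 3174, 2664 and 3040 CPM in KO ND to 5166, 20917 and 17431 CPM in KO HFD, and in WT from 4192, 6159 and 7990 CPM to 5090, 4943 and 5014 CPM. KO HFD replicate 1 lay just above the WT HFD libraries and far below the other 2 KO HFD libraries. Its interaction of 2.58 (SE 0.56, edgeR adjusted p = 0.0498) was lost in 10 of the 12 fits that left out 1 library, all but those without WT ND replicate 1 or KO HFD replicate 1, with edgeR adjusted p up to 0.142. The first gene past the threshold had an interaction of 0.98 in size (edgeR adjusted p = 0.0502).

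Together the genes with a higher response in KO held 1.65% ± 0.27 of all counts in WT ND, 0.842% ± 0.086 in KO ND, 1.10% ± 0.023 in WT HFD, and on that diet 2.47% ± 1.10 in KO (SD, n = 3 each). Those with a lower response held 1.60% ± 0.30, 2.27% ± 0.13, 1.15% ± 0.031 and 0.509% ± 0.074 in the same groups. The first set stood at 1.24%, 3.37% and 2.81% in KO HFD replicates 1, 2 and 3. Much of these shares was the most abundant gene of each set. In KO HFD the gene of the first set, whose call was lost in 10 of 12 fits, held 0.459%, 2.06% and 1.65% of the counts, and the remaining genes 1.08% ± 0.27 (SD, n = 3). Without that gene the set held 0.979% ± 0.077 in WT ND, 0.522% ± 0.058 in KO ND and, on HFD, 0.652% ± 0.019 in WT (SD, n = 3 each). The gene of the second set held 1.48% ± 0.18 in KO ND, and the remaining genes 0.799% ± 0.060 (SD, n = 3 each).

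Replicate 1 of KO HFD lay closer to WT HFD than replicates 2 and 3 in both sets. In 70 of the 106 genes with a higher response it was the lowest of the 3 KO HFD libraries, and in 43 of the 61 with a lower response it was the highest. Over all tested genes it was the lowest in 41.9% and the highest in 41.8%. KO ND replicate 2 showed the opposite tendency, as the lowest KO ND library in 64 of the 106 genes (35.5% of all tested genes) and the highest in 33 of the 61 (37.1%). Both sets were chosen by the interaction in these same libraries, so the counts are a description and were not tested.

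The number of interaction genes changed greatly with single libraries. Leaving out KO HFD replicate 1 raised it to 942 (575 higher and 367 lower in KO). It dropped to 11 when WT HFD replicate 3 was left out and to 18 for KO HFD replicate 3. With other HFD libraries left out it was 119 and 78 (WT, replicates 1 and 2) and 80 (KO, replicate 2). For the ND libraries of replicates 1, 2 and 3 it was 189, 57 and 95 in WT, against 99, 55 and 88 in KO. All of the 167 kept their sign in each of the 12 fits, and the interaction of each stayed between 0.71 and 1.38 times its value with all libraries. Over all tested genes, 89.4% (no KO HFD replicate 2) to 94.9% (no KO ND replicate 3) kept their sign. Each fit shared all but 1 library with the fit that chose the 167. Their kept sign and size were thus largely fixed and are no separate evidence. Of the 167, 71 were called in at least 6 of the 12 fits, 46 in at least 10, and 10 in all 12. Among these 10, 6 had a higher response in KO and 4 a lower one, with sizes of 1.86 to 5.21 and 1.46 to 3.35 on the log2 scale. On ND, 5 of the 6 and 4 of the 4 differed between genotypes, against 4.81% of all tested genes. On HFD 2 of the 6 and 2 of the 4 did, against 0.246%. The 10 were chosen by the interaction, which is the difference of these 2 contrasts, so the counts are a description. MGP_C57BL6NJ_G0029349 and MGP_C57BL6NJ_G0017358 were 2 of the 10.

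The composition of the list changed with KO HFD replicate 1 too. Without it, 449 of the 942 genes were called between genotypes on HFD and 413 on ND, where with all libraries 20 and 112 of the 167 were. With all libraries, 0.246% of all tested genes were called on HFD and 4.81% on ND. The same shares without KO HFD replicate 1 are not given here, so whether the shift is particular to the interaction genes was not tested. Without that library, genes that fell in WT and rose in KO numbered 117 (28 with all libraries, 4 without WT HFD replicate 3 or KO HFD replicate 3). Those that rose in WT and fell in KO numbered 50 (13 with all libraries, 0 without WT HFD replicate 3 or KO HFD replicate 3). All 167 genes were among the 942. The cause of the larger number was not tested.

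**Figure D5:**
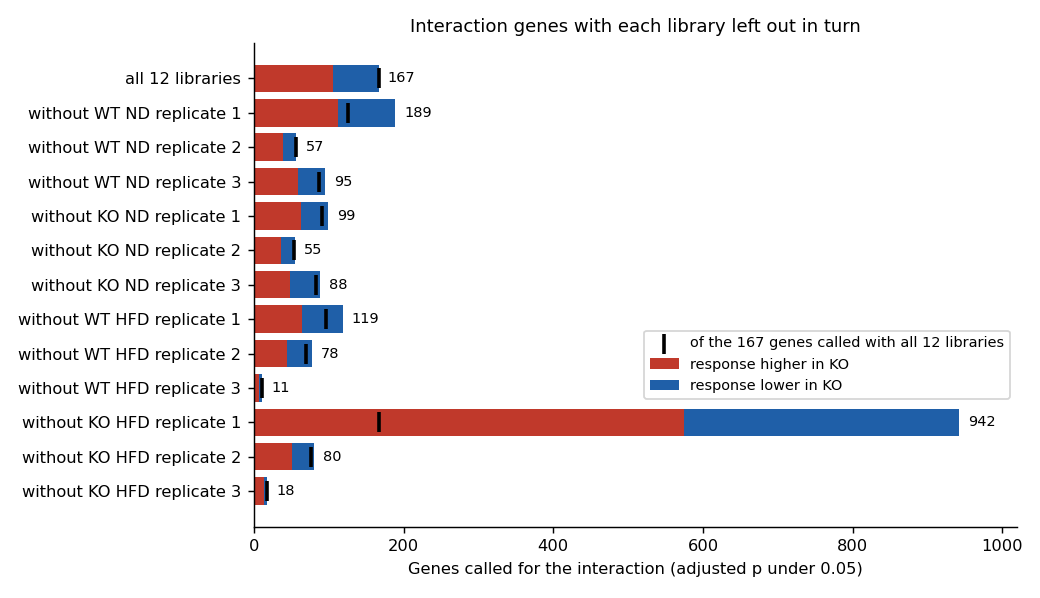
Number of genes called for the interaction with all 12 libraries and with each library left out in turn, split into a higher (red) and lower (blue) response in KO, with the total printed at the end of each bar. The black mark shows how many of the 167 genes were called in that fit: all 167 when KO HFD replicate 1 was left out, but 11 for WT HFD replicate 3.

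The called genes had the same direction of interaction on the log and CPM scales, which their selection largely fixed. Where the genotype difference changes sign between diets, both scales are all but bound to give 1 direction. That held for 146 of the 167, so the comparison is a description and no check of scale. Differences of group mean CPM had the same sign as the log2 interaction in all 167, whereas the signs differed in 6.65% of all tested genes. For MGP_C57BL6NJ_G0017358 the response in KO was lower by 64.3 CPM (difference of differences -64.3), and for MGP_C57BL6NJ_G0019851 it was higher by 52.5 CPM.

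At the level of whole libraries, 4 summaries were tested for an interaction by exact permutation of the genotype labels within each diet (400 arrangements, two-sided, smallest possible p = 0.005). The p-values are exact only if genotype has no effect on either diet. With a genotype difference shared by both diets they are approximate for the interaction. The 10 most abundant rows of each library held 15.9% ± 0.85 of its counts in WT ND, 22.9% ± 0.64 in WT HFD, 17.2% ± 0.63 in KO ND and, in KO fed HFD, 20% ± 2.48 (SD, n = 3 each). The difference between diets was 7.05 percentage points in WT and 2.78 in KO, an interaction of -4.26 points. It had an exact p of 0.03 and an adjusted p of 0.12 over the 4 summaries, and so did not pass. The 3 KO HFD libraries were at 22.9%, 18.7% and 18.5%, with replicate 1 among the WT HFD libraries at 22.4% to 23.6%. Without KO HFD replicate 1 the interaction was -5.69 points (exact p = 0.01, adjusted p = 0.03).

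The other summaries did not pass either. The 100 most abundant rows gave an interaction of -1.93 points (exact p = 0.105, adjusted p = 0.21), and -2.78 points without KO HFD replicate 1 (exact p = 0.015, adjusted p = 0.03). The share of counts in unannotated loci went from 2.22% ± 0.11 to 3.27% ± 0.50 in WT and from 2.14% ± 0.047 to 3.63% ± 0.75 in KO (SD, n = 3 each), an interaction of 0.43 points (exact p = 0.44). The number of rows at 1 CPM or more was 12433 ± 97 in WT ND, 12094 ± 219 in WT HFD, 12480 ± 104 in KO ND, and 12190 ± 52 in KO fed HFD (SD, n = 3 each). The interaction was 48.3 rows (exact p = 0.775). Its size and sign depended on the cut-off. It was 316 rows at 10 CPM or more (exact p = 0.05, adjusted p = 0.1) and -61.7 rows at 0.5 CPM or more (exact p = 0.785).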

How the data were processed

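The authors deposited raw counts of reads per gene, in 1 table that covers the 12 libraries. HISAT2 2.0.5 and featureCounts 1.5.0-p3 were used with the build mm39, per the submitters' processing notes. The IDs come from a C57BL/6NJ annotation (41096 rows) or are unannotated loci (1458 rows). Those IDs belong to a strain other than the reference one, so the build used for counting is unsettled and positions are left out. The kit named in the labels' protocols does not mark strand, so reads of overlapping genes cannot be told apart. Counts of gene copies with near-identical sequence are uncertain, since the rule for shared reads was not stated.

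Groups came from the titles. Rows kept by filterByExpr were fitted in edgeR 4.0.16 (R 4.3.3) with TMM factors, robust quasi-likelihood and 1 mean per group. The interaction was tested over all 13843 rows at a Benjamini-Hochberg adjusted p under 0.05. The 4 simple contrasts came from the same fit. An SE is the size of the log2 value divided by the square root of its F. Log CPM used a prior count of 2. Library summaries used untrimmed totals and exact permutation. The fit was tested on simulated data.

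The interaction, its classes and its tests were chosen with earlier results of these data known. The rule for named genes and the lists of 10 pathways and 12 cell types needed symbols. With none matched, the rule's alternative named 4 IDs, which are in each direction the lowest p and then the largest interaction, and the lists were not used. No replicates were duplicates (chi-square per degree of freedom 8.31 to 173, where sampling noise gives about 1). Alternatives were other normalisations and filters, DESeq2 1.42.0, limma-voom (limma 3.58.1), a replicate block, an adjusted p of 0.1, left-out rows and each left-out library.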

Additional observations from a re-analysis of the deposited data

Results flagged for a closer look

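The results below are those in which the same contrast, HFD against ND, differed between the 2 genotypes by a test of the difference itself (edgeR quasi-likelihood, adjusted p under 0.05). They are the 167 genes called for the interaction and, among them, the genes given by ID. MGP_C57BL6NJ_G0029349 had an interaction of 2.36 on the log2 scale and MGP_C57BL6NJ_G0019851 one of 3.02, both with a higher diet response in KO. MGP_C57BL6NJ_G0017358 had -1.46 and MGP_C57BL6NJ_G0032715 had -4.47, both with a lower response in KO.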

How the results depend on the processing

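The interaction count of 167 (106 higher and 61 lower in KO) stayed within 1.5 times under 11 of 23 alternatives, among them other size factors, both filters, limma-voom and the fits without unannotated loci or without the row absent from KO. DESeq2 called 656 genes (401 higher and 255 lower), all 167 among them, and the cause was not tested. An adjusted p under 0.1 gave 467 (289 and 178), by its construction. With 1 library left out the count ran from 11 to 942, higher from 7 to 575 and lower from 4 to 367. The interaction of the 10 most abundant rows ran from -5.69 to -3.50 points and that of the 100 most abundant from -2.78 to -1.31, and both passed only without KO HFD replicate 1. A replicate block gave 198 genes (118 and 80), with 145 of the 167 among them. Of the genes given by ID, it lost MGP_C57BL6NJ_G0019851 (edgeR adjusted p = 0.0777). The labels do not say what a number shares, and the check for pairing, a correlation over 0.1 in every same-numbered pair, was met in 5 of 18 pairs (from -0.02 to 0.25). Correlations were above 0 in 16 of those 18 and in 12 of 36 other-numbered pairs, and a library correlated best with its own number in 20 of 36 comparisons, where arbitrary numbers would give about 12. These counts depend on one another, because the correlations of 1 library with the 3 of another group sum to about 0. They were not tested, and are at most a hint of pairing in the data, not in the design. Genes MGP_C57BL6NJ_G0029349 and MGP_C57BL6NJ_G0017358 stayed called under all 23 alternatives, MGP_C57BL6NJ_G0019851 was lost under 11 and MGP_C57BL6NJ_G0032715 under 7, and none changed direction. The first 2 were named for the lowest p in their direction, and the alternatives use the same counts. That they stayed called is therefore no separate evidence. In 6 of the 167 genes a group held at most 3 counts in its 3 libraries; the median size of the other 161 was 1.58. Class counts stayed within 1.5 times under 10 to 14 of the 23 alternatives.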
